A study of Mus musculus with 4 samples.

Results

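The resident immune cells of newborn mouse epidermis were followed through 10 genes that mark them, in keratinocyte-specific Skiv2l knockout pups and littermate controls. The genes were Cd207 and Csf1r of the Langerhans cell lineage, Cd74, H2-Aa, H2-Ab1 and H2-Eb1 of MHC class II presentation, Ptprc and Coro1a of leukocytes in general, and Cd3e and Cd3g of T cells. They were found by gene symbol among the 54752 genes listed for each library. Total RNA from whole epidermis of 4 C57BL/6 pups at postnatal day 0 was sequenced, 1 library per pup, with 2 Skiv2l fl/fl K14-Cre pups and 2 Skiv2l ctl pups. In Skiv2l fl/fl K14-Cre pups both loxP-flanked alleles of Skiv2l, an RNA helicase of the cytoplasmic RNA exosome pathway, are deleted by constitutive Cre under the keratin 14 promoter, which is active in basal keratinocytes and not in leukocytes. The Skiv2l ctl genotype covers fl/+ animals with or without K14-Cre and fl/fl animals without it, and which of these each control pup was is not given per sample. The epidermis was not sorted, so the leukocyte transcripts are a small share of the RNA.

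The RNA of Skiv2l itself was at 19.3 and 19.1 FPKM in the control libraries and at 10.8 and 8.55 FPKM in the knockout libraries, both knockouts below both controls. FPKM values are corrected for transcript length and sequencing depth, so levels of different genes can be compared per length. The libraries held between 5.84 and 6.27 aligned gigabases. Keratinocyte marker genes summed to between 28268 and 32633 FPKM in every library, which is the tissue the labels name. Between 16138 and 17761 genes per library were above 0.5 FPKM, with the lowest number in Skiv2l fl/fl K14-Cre replicate 2.

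Mouse epidermis holds resident leukocytes among its keratinocytes. Langerhans cells are macrophage-related antigen-presenting cells whose precursors enter the epidermis before birth, and which gain langerin, the product of Cd207, and MHC class II in the days after birth. Dendritic epidermal T cells are gamma delta T cells that come from the fetal thymus and recognise keratinocytes. Keratinocytes keep Langerhans cells through IL-34, the epidermal ligand of the Csf1r receptor. Skint1 is needed for the selection of dendritic epidermal T cells in the fetal thymus, and here its RNA was measured in epidermis only.

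The MHC class II genes were 3.28- to 5.32-fold lower in knockout than in control epidermis, and the general leukocyte genes and Csf1r 1.92- to 2.25-fold lower. The CD3 genes, with control means 1.32 and 1.53 times the knockout means, did not pass the test. Of the 10 genes, 9 passed the filter of FPKM above 0.5 in at least 1 library, and all 9 were above it in all 4 libraries. Of these 9, 7 were called lower, 0 higher and 2 neither, by limma on log2(FPKM + 1), adjusted by Benjamini-Hochberg over 13609 protein-coding genes and a threshold of 0.05. Of all genes tested, 25.4% were called lower and 8.99% higher. The median log2 change of the 9 genes was -0.92, against -0.20 over all genes tested. In all 9 both knockout libraries lay below both controls, as they did for 55.3% of the genes tested. With every library scaled to the same median, 11.9% of the genes tested were called lower and 13.9% higher, the median over all genes became -0.03, and the number of the 10 genes called lower was again 7. With Skiv2l ctl replicate 1 or replicate 2 left out, 5 were called lower. The smallest two-sided p that exact permutation of 2 against 2 pups allows is 0.333, and the limma p-values measure only the spread between these 4 pups. In whole tissue, fewer cells of a type, less RNA per cell and more RNA from other cells cannot be told apart. FPKM is a share of the library, and the paper reports thickened epidermis with enlarged keratinocytes in P0 pups of the knockout genotype. The part this had in the lower values was not tested.

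**Figure D1:**
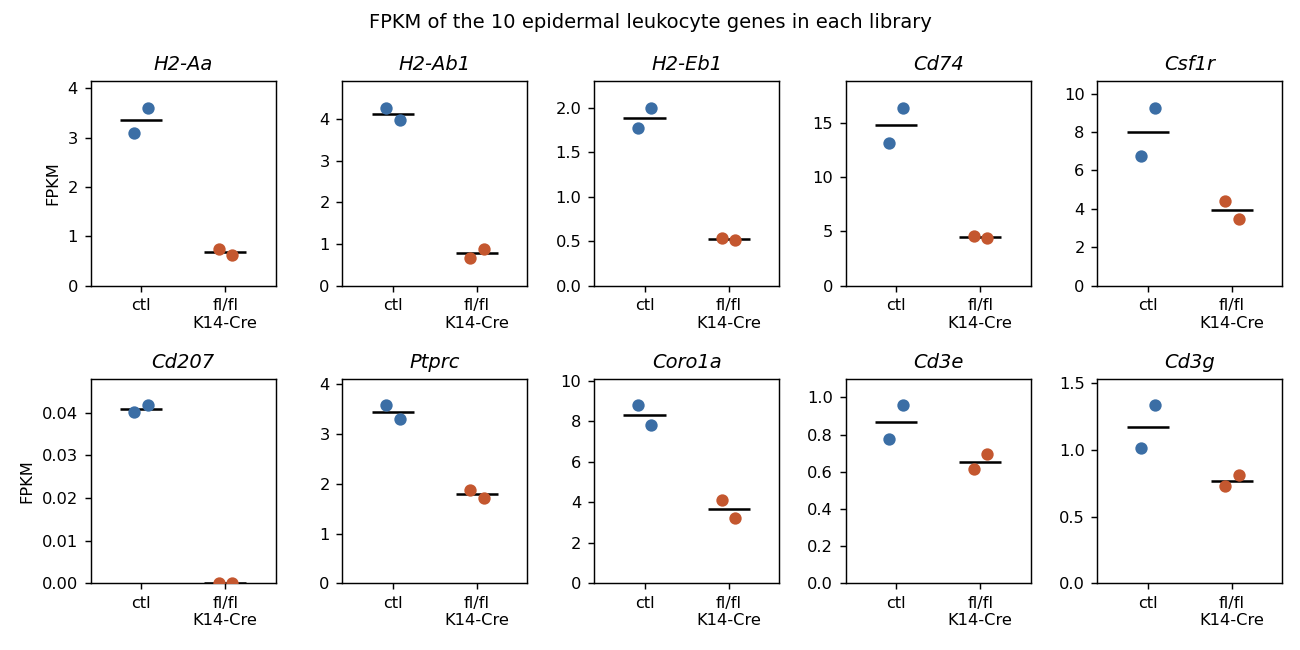
FPKM (vertical axes, each from 0) of the 10 genes in each library, with 1 point per pup and a bar at the mean of the 2 pups of a genotype. Each axis is scaled to the values of its own gene. The knockout points lie below the control points in every panel. Among the 9 genes tested, the ratio of the means is widest in the MHC class II genes and narrowest in Cd3e and Cd3g. Cd207, which was not tested, is at 0.0417 FPKM or less in every library.

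H2-Aa, H2-Ab1 and H2-Eb1 encode the alpha chain of I-A, the beta chain of I-A and the beta chain of I-E, the surface molecules that show peptides to CD4+ T cells. C57BL/6 mice lack the alpha chain of I-E and so assemble I-A only. All 3 lie in the MHC on chromosome 17 (GRCm38), with H2-Ab1 (ENSMUSG00000073421.5) at chr17:34263209-34269418 on the plus strand, H2-Aa (ENSMUSG00000036594.14) at chr17:34282744-34287827 on the minus strand and H2-Eb1 (ENSMUSG00000060586.10) at chr17:34305877-34316199 on the plus strand. They are 523 to 569.8 kb from Skiv2l, which is on the same chromosome. Cd74 (ENSMUSG00000024610.14, chr18:60803848-60812646, plus strand) encodes the invariant chain, which occupies the groove of the class II molecule until it is exchanged for a peptide.

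H2-Ab1 was at 4.27 and 3.97 FPKM in the control libraries and at 0.674 and 0.877 FPKM in the knockout libraries. Both knockouts lay far below both controls, and the mean was 5.32-fold lower, the widest ratio of the 9 genes tested. Its log2 change was -1.53 ± 0.13 (SE, n = 2 per genotype), with an adjusted p of 0.000885 (limma). H2-Aa was at 3.09 and 3.61 FPKM in the controls and at 0.743 and 0.631 FPKM in the knockouts. These groups also stood apart, with a mean 4.88-fold lower and a log2 change of -1.37 ± 0.14 (adjusted p = 0.00137, limma). H2-Eb1, the lowest of the 3 chains in the controls, was at 1.77 and 2.0 FPKM there and at 0.540 and 0.518 FPKM in the knockouts. The groups did not overlap, the mean was 3.57-fold lower, and the log2 change was -0.92 ± 0.14 (adjusted p = 0.0049, limma). Because 1 is added before the logarithm, these log2 changes understate the ratios of genes near 1 FPKM. Cd74 was the most abundant of the 10 genes in the controls, at 13.1 and 16.4 FPKM, and stood at 4.61 and 4.39 FPKM in the knockouts. The knockouts were close to each other and 3.28-fold below the control mean, with a log2 change of -1.51 ± 0.13 (adjusted p = 0.000857, limma). Reads covered Cd74 at a mean depth of 73.3 and 93.8 in the control libraries and of 24.3 and 23.8 in the knockout libraries, against 1.64 to 3.80 over H2-Aa and H2-Ab1 in the latter, so the class II chains rest on fewer reads than Cd74. No stretch of 75 bases of the transcripts of these 4 genes occurred in another gene, although an exon of Cd74 overlaps the microRNA gene Mir5107. The 4 genes together summed to 22.3 and 26.0 FPKM in the controls and to 6.56 and 6.42 FPKM in the knockouts.

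Class II genes share promoter elements, the X and Y boxes, that are bound by the RFX and NF-Y complexes and on which the coactivator CIITA acts. The 130 bases before the start of 4 class II genes are shown, for the members with an entry and for the H2-DMb genes, which share a run of letters with H2-Eb1. They come from RefSeq on GRCm38.p6 and read 5′ to 3′ on the gene's strand. Capitals mark ATTGG or its reverse complement CCAAT, the core of a Y box, and AACNGATGATGCT.
H2-Aa, chr17:34287824-34287953, minus strand: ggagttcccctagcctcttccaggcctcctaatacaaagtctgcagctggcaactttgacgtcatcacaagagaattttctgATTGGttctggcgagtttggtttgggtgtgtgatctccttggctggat
H2-Eb1, chr17:34305737-34305866, plus strand: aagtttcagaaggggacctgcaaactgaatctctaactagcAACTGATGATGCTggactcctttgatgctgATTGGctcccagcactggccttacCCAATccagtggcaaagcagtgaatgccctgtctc
H2-DMb1, chr17:34153061-34153190, plus strand: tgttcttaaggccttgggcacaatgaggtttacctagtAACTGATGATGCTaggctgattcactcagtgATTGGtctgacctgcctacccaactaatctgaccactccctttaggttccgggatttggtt
H2-DMb2, chr17:34145119-34145248, plus strand: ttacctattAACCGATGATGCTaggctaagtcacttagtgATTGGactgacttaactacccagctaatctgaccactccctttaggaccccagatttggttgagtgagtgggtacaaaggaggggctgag
ATTGG began 48 bases before the RefSeq start of H2-Aa, 59 before that of H2-Eb1, 61 before that of H2-DMb1 and 90 before that of H2-DMb2. On either strand it occurred in 22.4% of 32851 RefSeq windows of this length. AACNGATGATGCT is the longest run shared by the windows of H2-Eb1 and H2-DMb1, with N where H2-DMb2 differs. Chosen after these sequences had been read, it occurred in 4 of the 32851 windows on either strand, including those of H2-Eb1, H2-DMb1 and H2-DMb2. No promoter entry was used for H2-Ab1. Neither motif was in either window of H2-DMa, which was called lower. Those windows end at chr17:34122831 and chr17:34125517, upstream of the listed start of the gene at chr17:34135182. The bases next to that start were therefore not searched. The windows of H2-DMb1 and H2-DMb2 end at chr17:34153190 and chr17:34145248, past their listed starts at chr17:34153072 and chr17:34143307. For H2-DMb2 the window lies inside the listed gene, and the bases before its listed start were not searched either. ATTGG was in the windows of H2-Ob and H2-Eb2, which were listed at 0 FPKM in all 4 libraries. A match describes the letters of the window and not binding.

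Of 11 further genes of the class II pathway, 8 were tested, 3 were called lower and 0 higher, and the median log2 change was -0.41 against -0.20 over all genes. This is 37.5% called lower, against 25.4% of all genes tested. Of the 8, 3 passed the filter only through the controls, where they were higher, and the called gene H2-DMb1 is among them, so its call is not independent of the filter. The 3 called genes, in order of log2 change, were Rfx5, H2-DMa and H2-DMb1. Rfx5, a subunit of the RFX complex, was at 5.90 and 5.89 FPKM in the controls and at 3.60 and 3.01 FPKM in the knockouts, with no overlap and a log2 change of -0.68 (adjusted p = 0.00916, limma). H2-DMa and H2-DMb1 encode the chains of H2-M, which removes the last piece of the invariant chain from the groove. H2-DMa was at 2.20 and 2.40 FPKM in the controls and at 1.07 and 1.14 FPKM in the knockouts (log2 change -0.65, adjusted p = 0.0128, limma), and H2-DMb1 at 1.09 and 1.24 FPKM against 0.439 and 0.450 FPKM (log2 change -0.58, adjusted p = 0.023, limma). Both knockouts lay below both controls for each. H2-DMb2, whose RefSeq window is shown above, was at 0.530 and 0.580 FPKM in the controls and at 0.145 and 0.125 FPKM in the knockouts. It missed the threshold (adjusted p = 0.0549, limma). Ciita, which encodes the coactivator, was low, at 0.646 and 0.419 FPKM against 0.397 and 0.299 FPKM, and was not called (adjusted p = 0.389, limma). Rfxank, the most abundant of the 11 on the mean of all 4 libraries, was at 8.88 and 9.13 FPKM in the controls and at 7.05 and 8.91 FPKM in the knockouts, where the second knockout reached the level of the controls (adjusted p = 0.344, limma). H2-Ob and H2-Eb2 were listed at 0 in all 4 libraries. With either control library left out, 0 of the 8 were called lower. H2-DMb2, Ciita, H2-Ob and H2-Eb2 were named after their values were seen.

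Csf1r (ENSMUSG00000024621.15, chr18:61105572-61132149, plus strand), the receptor on which Langerhans cells and other macrophages depend, was at 6.77 and 9.26 FPKM in the controls and at 4.38 and 3.48 FPKM in the knockouts. The groups did not overlap, but the SD of the controls, 1.76 FPKM, was the largest among the 10 genes after that of Cd74, 2.30 FPKM. The mean was 2.04-fold lower, with a log2 change of -0.86 ± 0.17 and a 95% interval from -1.28 to -0.45 (adjusted p = 0.0131, limma). Without Skiv2l ctl replicate 2 the log2 change was -0.66 (adjusted p = 0.104, limma), without Skiv2l fl/fl K14-Cre replicate 2 it was -0.73 (adjusted p = 0.0516), and with no filter on FPKM the adjusted p was 0.0511. The last exon overlaps Hmgxb3 on the other strand, and 13.9% of the 75-base stretches of Csf1r also occur in Hmgxb3, which was at 11.6 and 9.82 FPKM in the controls and at 8.43 and 9.60 FPKM in the knockouts and was not called. Cd207 (ENSMUSG00000034783.7, chr6:83671215-83677857, minus strand) was at 0.0401 and 0.0417 FPKM in the controls and listed at 0 in both knockouts. At a mean depth of 0.244 and 0.261 over 1522 exonic bases, the control values stand for only 371 and 398 aligned bases, so langerin mRNA was close to the limit of detection in all 4 libraries and was not tested.

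Of 23 further Langerhans cell and macrophage genes, 20 were tested, 3 were called lower and 0 higher. The share called lower, 15%, was below the 25.4% of all genes tested, and the median log2 change was -0.40. Of the 20, 1 passed the filter only through the controls. Cx3cr1, the fractalkine receptor carried by macrophages and Langerhans cell precursors, was at 2.32 and 3.16 FPKM in the controls and at 1.05 and 0.359 FPKM in the knockouts. The groups stood apart, 3.87-fold on the means, with a log2 change of -1.15 ± 0.23 (adjusted p = 0.0136, limma). Spi1, which encodes the myeloid transcription factor PU.1, was at 3.34 and 2.88 FPKM against 1.91 and 0.938 FPKM (log2 change -0.79, adjusted p = 0.0332, limma). Tyrobp, a signalling adaptor of myeloid and NK cells, was at 7.38 and 8.54 FPKM against 4.15 and 4.21 FPKM (log2 change -0.79, adjusted p = 0.00472, limma). The knockouts lay below the controls in all 3 of these genes. C1qb, a complement subunit made by macrophages and the most abundant of these genes, was at 9.82 and 16.5 FPKM in the controls and at 9.95 and 7.47 FPKM in the knockouts. Here the groups overlapped, and the log2 change of -0.52 was not called (adjusted p = 0.144, limma). Ctss, which the class II list holds as well, was not called (adjusted p = 0.196, limma). Without Skiv2l ctl replicate 2, 0 of the 20 were called lower.

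Ptprc (ENSMUSG00000026395.16, chr1:138062861-138175708, minus strand) encodes CD45, the phosphatase on the surface of nearly all leukocytes. It was at 3.57 and 3.31 FPKM in the controls and at 1.87 and 1.71 FPKM in the knockouts. The pups of each genotype were close together, and the mean was 1.92-fold lower, with a log2 change of -0.67 ± 0.12 (adjusted p = 0.0101, limma). Without Skiv2l ctl replicate 1 the adjusted p was 0.0902, and without replicate 2 it was 0.0723. Coro1a (ENSMUSG00000030707.15, chr7:126699773-126707787, minus strand) encodes coronin 1A, an actin regulator of leukocytes. It was at 8.79 and 7.83 FPKM in the controls and at 4.14 and 3.24 FPKM in the knockouts. The groups stood apart, 2.25-fold on the means, with a log2 change of -0.99 ± 0.14 (adjusted p = 0.00382, limma, and 0.0631 without Skiv2l ctl replicate 1). Its end overlaps Bola2 on the other strand, which was not called and was at 8.26 and 7.27 FPKM in the controls and at 8.93 and 8.80 FPKM in the knockouts.

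Of 22 further genes expressed across leukocytes, 21 were tested, 5 were called lower and 1 higher, with a median log2 change of -0.34. The share called lower, 23.8%, was near the 25.4% of all genes tested. Of the 21, 4 passed the filter only through the controls. Lcp1, the actin bundler L-plastin, was at 7.81 and 8.08 FPKM in the controls and at 2.91 and 1.74 FPKM in the knockouts, a log2 change of -1.45 ± 0.18 (adjusted p = 0.00295, limma). Ptpn6, the phosphatase SHP-1, was at 9.48 and 9.75 FPKM against 5.42 and 4.99 FPKM (log2 change -0.78, adjusted p = 0.00341, limma). Both genes stood clear of the controls in both knockouts. Laptm5, a lysosomal protein of haematopoietic cells, and Nckap1l, the leukocyte subunit of the WAVE complex, fell less, by 0.56 and 0.52 on the log2 scale (adjusted p = 0.0252 and 0.0428, limma). Arhgdib, the most abundant of these genes, was at 35.4 and 36.7 FPKM against 28.8 and 30.0 FPKM (log2 change -0.28, adjusted p = 0.0418, limma). Il2rg, the common cytokine receptor gamma chain, went the other way, at 3.24 and 3.39 FPKM in the controls and at 5.97 and 5.39 FPKM in the knockouts, both above both controls (log2 change 0.63, adjusted p = 0.0098, limma). With either control library left out, 1 of the 21 was called lower. With Skiv2l fl/fl K14-Cre replicate 2 left out, 2 were. With median scaling or quantile normalization, 2 were as well. Arhgdib was far above Ptprc in every library. Which cells made the transcripts of these further genes was not tested.

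**Figure D2:**
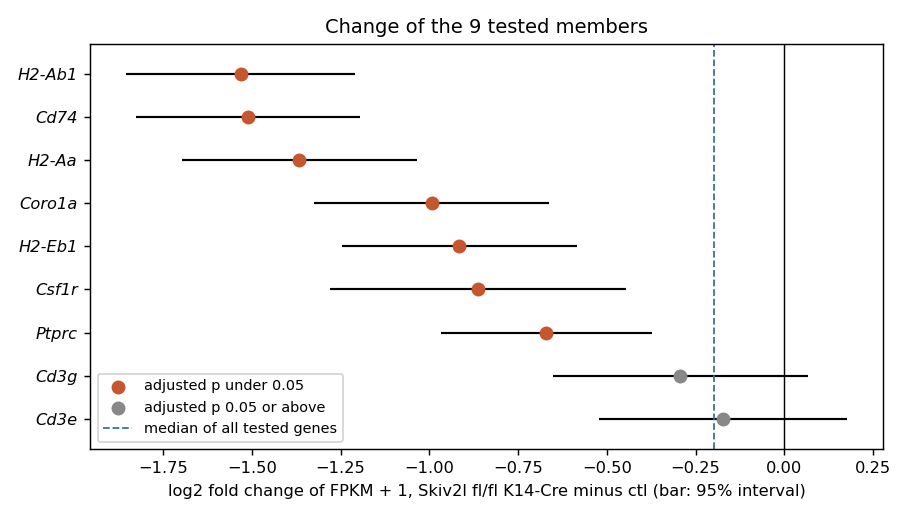
Log2 change of FPKM + 1 (horizontal axis, Skiv2l fl/fl K14-Cre minus ctl) of the 9 genes tested, with 95% intervals from limma over 2 pups per genotype and a dashed line at the median of all genes tested. The MHC class II genes H2-Ab1, Cd74 and H2-Aa lie farthest from 0, and the intervals of Cd3g and Cd3e include 0 and the median of all genes.

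Cd3e and Cd3g encode signalling subunits of the T cell receptor complex. Cd3e (ENSMUSG00000032093.7, chr9:44998740-45009627, minus strand) was at 0.777 and 0.956 FPKM in the controls and at 0.613 and 0.696 FPKM in the knockouts. Cd3g (ENSMUSG00000002033.14, chr9:44969572-44980431, minus strand) was at 1.01 and 1.33 FPKM in the controls and at 0.727 and 0.810 FPKM in the knockouts. In both genes the knockouts lay below the controls, but the difference of the means was close to the distance between the controls. The log2 change of Cd3e was -0.17, with a 95% interval from -0.52 to 0.18 (adjusted p = 0.370, limma), and with quantile normalization it was 0.00 (adjusted p = 0.998). The log2 change of Cd3g was -0.29, with an interval from -0.65 to 0.07 (adjusted p = 0.166, limma). The knockout mean was 75.5% of the control mean for Cd3e and 65.6% for Cd3g. A mean read depth of 1.19 to 2.69 over these genes limits what could be detected. Cd3e overlaps the antisense gene Gm48719, which was listed at 0 in all 4 libraries.

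Of 23 further T cell genes, 14 were tested, 3 were called lower and 0 higher, with a median log2 change of -0.30. The share called lower, 21.4%, was near the 25.4% of all genes tested. Of the 14, 4 passed the filter only through the controls and 1 only through the knockouts. Cd5, a receptor of T cells that tunes receptor signalling, was at 4.51 and 4.43 FPKM in the controls and at 2.18 and 1.11 FPKM in the knockouts (log2 change -1.08, adjusted p = 0.0114, limma). Gata3 was at 70.2 FPKM in both controls and at 32.5 and 41.9 FPKM in the knockouts (log2 change -0.91, adjusted p = 0.00411, limma). Tcf7, a transcription factor of T cells, was at 4.84 and 5.30 FPKM against 3.33 and 3.07 FPKM (log2 change -0.53, adjusted p = 0.0176, limma). In these 3 genes the groups did not overlap. Bcl11b, the most abundant of the 14, was at 87.7 and 56.4 FPKM in the controls and at 40.9 and 60.4 FPKM in the knockouts, which overlapped (adjusted p = 0.169, limma). Gata3 and Bcl11b are transcription factors that keratinocytes make as well, and both were far above the CD3 genes in every library. Cd5 and Tcf7 were above the CD3 genes in every library too. Which cells made the transcripts of Cd5, Tcf7, Gata3 and Bcl11b was not tested. With Skiv2l ctl replicate 1 left out 1 of the 14 was called lower, and with replicate 2 left out 0 were.

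The T cell receptor segments, which are not protein-coding genes in the annotation, were compared in a fit over 19572 genes of all biotypes, of which 15.8% were called lower and 6.23% higher. Tcrg-V5 and Trdv4, the V segments annotated for the receptor of dendritic epidermal T cells, were both low. Tcrg-V5 was at 0.994 and 0.818 FPKM in the controls and at 0.723 and 0.506 FPKM in the knockouts (log2 change -0.24, adjusted p = 0.327, limma). Trdv4 was at 0.693 and 0.518 FPKM in the controls and at 0.153 and 0.230 FPKM in the knockouts (log2 change -0.43, adjusted p = 0.110, limma). Both knockouts were below both controls for each segment, and neither was called. The constant segments Tcrg-C1 and Tcrg-C4 were not called either (adjusted p = 0.475 and 0.261, limma). Trdc was at 0.161 and 0.463 FPKM against 0.0899 and 0.103 FPKM, Tcrg-C2 at 0.139 and 0.352 FPKM against 0.0977 and 0.0561 FPKM, and Trac at 0.0622 FPKM or less in every library, and these were below the filter. The beta chain constant segments were higher in the knockouts. Trbc1 was at 1.96 and 2.22 FPKM in the controls and at 7.17 and 7.79 FPKM in the knockouts (log2 change 1.46 ± 0.13, adjusted p = 0.00135, limma). Trbc2 was at 14.7 and 12.95 FPKM in the controls and at 34.97 and 37.8 FPKM in the knockouts (log2 change 1.34 ± 0.10, adjusted p = 0.000857, limma). Both knockouts stood far above both controls for both segments, and Trbc2 was above the sum of Cd3e and Cd3g, 1.34 to 2.29 FPKM, in every library. The segments share 34.6% of the 75-base stretches of Trbc1 and 37.7% of those of Trbc2, so the division of reads between them is uncertain.

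The genes were also compared with 1 general leukocyte gene, by dividing each by Ptprc in the same library. Cd74 was at 3.67 and 4.95 times Ptprc in the controls and at 2.46 and 2.57 times in the knockouts. H2-Ab1 was at 1.196 and 1.202 times Ptprc in the controls and at 0.360 and 0.513 times in the knockouts, and H2-Aa at 0.866 and 1.09 times against 0.397 and 0.370 times. In these 3 genes the ratios of the knockouts lay below those of the controls. Relative to Ptprc the log2 difference was -0.84 for Cd74 (adjusted p = 0.00192, limma), -0.86 for H2-Ab1 (adjusted p = 0.00194) and -0.70 for H2-Aa (adjusted p = 0.00564). In that fit 3% of 13608 genes were called lower and 61.8% higher (2.79% and 65.9% when 0.1 was added in place of 1), and the spread of Ptprc between pups is shared by all of them. Lower values relative to Ptprc were not particular to the class II genes. Lcp1, a general leukocyte gene, was called lower (log2 difference -0.78, adjusted p = 0.00454, limma). H2-DMa, H2-DMb1 and H2-DMb2 were not called at 1 (adjusted p = 0.912, 0.645 and 0.268, limma) or at 0.1 (0.759, 0.442 and 0.345). For H2-DMb1 and H2-DMb2 the sign depended on the number added, with log2 differences of 0.09 and 0.22 at 1 and of -0.31 and -0.57 at 0.1. H2-DMb2 was at 0.148 and 0.175 times Ptprc in the controls and at 0.0774 and 0.0730 times in the knockouts. The ratios of H2-DMb1 were also lower in both knockouts, and those of H2-DMa overlapped. H2-Eb1 was at 0.495 and 0.605 times Ptprc in the controls and at 0.288 and 0.303 times in the knockouts, and its call depended on the number added before the logarithm, with an adjusted p of 0.201 at 1 and 0.0419 at 0.1. Csf1r, at 1.90 and 2.80 times Ptprc in the controls and at 2.34 and 2.03 times in the knockouts, overlapped between genotypes (log2 difference -0.19, adjusted p = 0.352, limma). Coro1a was not called either (log2 difference -0.32, adjusted p = 0.0635). Cd3e was at 0.217 and 0.289 times Ptprc in the controls and at 0.327 and 0.408 times in the knockouts, a log2 difference of 0.50 (adjusted p = 0.0298, limma) that was not called when 0.1 was added (adjusted p = 0.178). Cd3g overlapped (adjusted p = 0.0824). Relative to Csf1r, H2-Ab1 and H2-Aa were not called at 1 (adjusted p = 0.0718 and 0.165, limma) and were called lower at 0.1 (adjusted p = 0.00572 and 0.0183), and Cd74 was called at neither (adjusted p = 0.0777 and 0.0972). In the fits relative to Csf1r, 0.61% of the genes were called lower and 41.1% higher at 1, and 1.23% lower and 40.5% higher at 0.1.

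**Figure D3:**
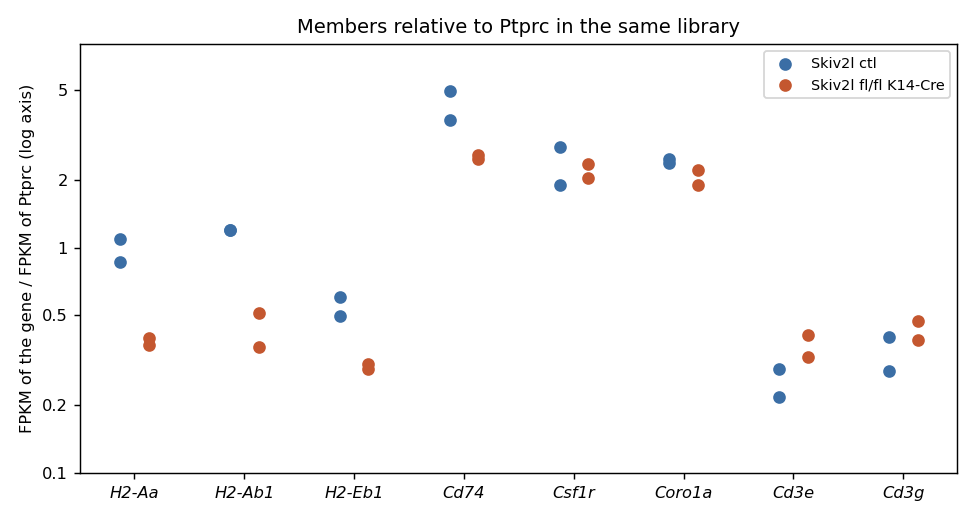
FPKM of 8 genes divided by that of Ptprc in the same library (vertical log axis), with 1 point per pup, blue for Skiv2l ctl and orange for Skiv2l fl/fl K14-Cre. The ratios of H2-Aa, H2-Ab1, H2-Eb1 and Cd74 are lower in both knockouts, those of Csf1r and Cd3g overlap, and those of Cd3e are higher in both knockouts.

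Keratinocytes, in which the keratin 14 promoter drives Cre, make factors for these leukocytes, and 16 genes were listed under that name. Because the epidermis was not sorted, which cells made these transcripts was not tested. The list is wider than secreted factors. It holds Epcam, which was not called, and Ahr, a transcription factor that was called lower (log2 change -0.82, adjusted p = 0.0046, limma). Both were named after their values were seen. Of 16 listed, 14 were tested, 9 were called lower and 2 higher, with a median log2 change of -0.56 against -0.20 over all genes. This is 64.3% called lower, against 25.4% of all genes tested, of which 8.99% were called higher. Of the 14, 1 (Ccl20) passed the filter only through the knockouts, where it was higher. Il34, the ligand of Csf1r on which Langerhans cells rely, was at 29.7 and 27.3 FPKM in the controls and at 10.1 and 9.19 FPKM in the knockouts. The mean was 2.96-fold lower, with a log2 change of -1.47 ± 0.10 (adjusted p = 0.000376, limma). Skint1 was at 37.3 and 39.8 FPKM in the controls and at 16.7 and 14.5 FPKM in the knockouts, 2.47-fold lower (log2 change -1.25 ± 0.10, adjusted p = 0.00071, limma). Both factors stood far below the controls in both knockouts. Il15, a cytokine that sustains epidermal T cells, was at 2.65 and 3.29 FPKM in the controls and at 0.971 and 0.993 FPKM in the knockouts, 3.02-fold lower (log2 change -0.997, adjusted p = 0.00416, limma). Cxcl14, a chemokine of epithelia, was at 168 and 164 FPKM against 80.1 and 82.7 FPKM (log2 change -1.02, adjusted p = 0.000589, limma). The knockouts were again below the controls without overlap. Itgb6, a subunit of the integrin that activates TGF-beta for Langerhans cells, was higher, at 3.12 and 2.96 FPKM in the controls and at 8.69 and 8.35 FPKM in the knockouts (log2 change 1.24, adjusted p = 0.000864, limma). Ccl20, a chemokine for Langerhans cell precursors and T cells that was named after its values were seen and that passed the filter only through the knockouts, was at 0 and 0.276 FPKM in the controls and at 1.63 and 0.905 FPKM in the knockouts (log2 change 0.99, adjusted p = 0.0181, limma). Cdh1, the E-cadherin by which Langerhans cells adhere to keratinocytes and the most abundant of the list, was at 228 and 238 FPKM in the controls and at 226 and 206 FPKM in the knockouts and was not called (adjusted p = 0.349, limma). Without Skiv2l ctl replicate 1, 5 of the 14 were called lower and 1 higher, and without replicate 2, 4 were lower and 1 higher. Without Skiv2l fl/fl K14-Cre replicate 1, 1 was called higher.

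**Figure D4:**
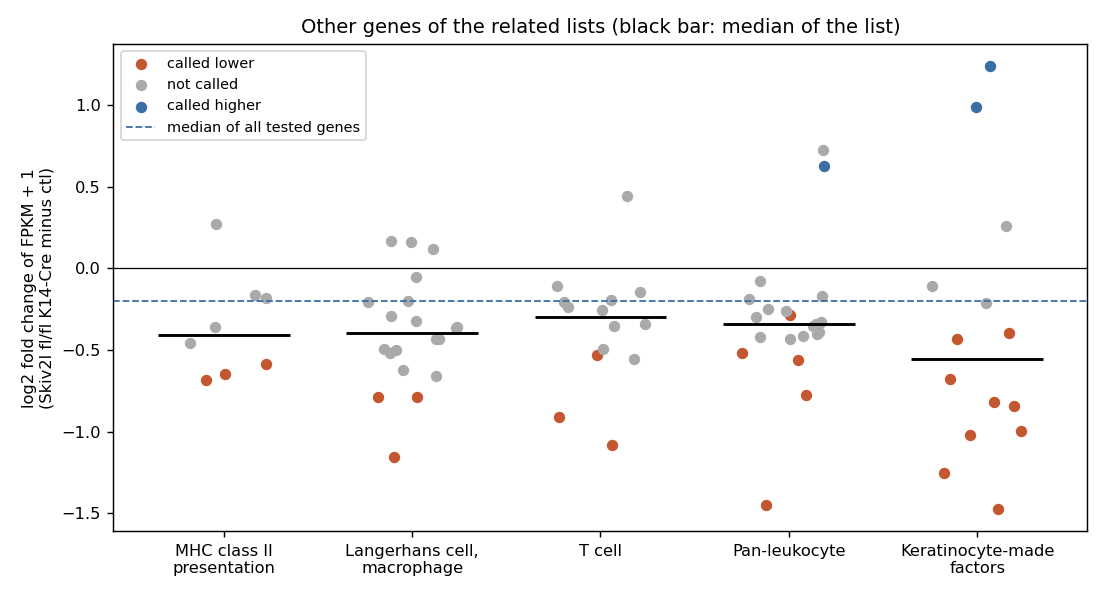
Log2 change of FPKM + 1 (vertical axis, Skiv2l fl/fl K14-Cre minus ctl) of the tested genes of 5 lists without the 10 genes themselves, with 1 point per gene, a black bar at the median of each list and a dashed line at the median of all genes tested. The medians run from -0.56 for the keratinocyte-made factors to -0.30 for the T cell genes, and 3 genes are called higher.

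Markers of other cells were read in the same libraries. Over all genes tested, 25.4% were called lower and 8.99% higher, which is the background for the counts that follow. Erythroid genes were also lower in the knockouts, with 4 of 5 tested called lower. Their list summed to 134 and 125 FPKM in the controls and to 62.1 and 80.8 FPKM in the knockouts. The 10 leukocyte genes summed to 43.2 and 48.7 FPKM against 18.3 and 16.3 FPKM, with the pups of each genotype in the opposite order. Hba-a1 was at 45.7 and 42.7 FPKM against 20.8 and 29.1 FPKM, its reads being hard to separate from those of its near copy Hba-a2. Of the 8 genes listed, 1 was at 0 in all libraries. Of the dermal fibroblast genes, 3 of 6 tested were called lower, with 169 and 165 FPKM in sum against 68.0 and 86.1 FPKM, most of it from Dcn and from Postn, which was at 107 and 95.3 FPKM against 45.6 and 60.6 FPKM. Pdgfra, at 0.299 and 0.250 FPKM in the controls and at 0.789 and 0.668 FPKM in the knockouts, lay above the controls and was not called (adjusted p = 0.0601, limma), and Col1a1 overlapped between genotypes (adjusted p = 0.681). Of the skeletal muscle list, Mylpf was the only gene tested and was called lower, and the list summed to 3.29 and 2.81 FPKM in the controls and to 1.62 and 1.44 FPKM in the knockouts. The part that blood or dermis in the preparations had in the lower leukocyte transcripts was not tested. Of the 12 neutrophil genes 2 were tested and both were called higher, Stfa2 at 121 and 120.0 FPKM in the controls and at 439 and 464 FPKM in the knockouts and Cxcr2 at 0.127 and 0.208 FPKM against 6.51 and 5.56 FPKM. Cxcr2 passed the filter only through the knockouts, and Ly6g and Elane were listed at 0 in all 4 libraries. Csf3r, of the same list, was at 0.119 and 0.462 FPKM in the controls and at 0.315 and 0.461 FPKM in the knockouts. It was below the filter. Cxcr2, Ly6g, Elane, Csf3r, Hba-a2, Dcn, Pdgfra and Col1a1 were named after their values were seen. B cell genes summed to 0.599 FPKM or less in every library and none was tested. Of the mast cell genes only Kit, which melanocytes also make, was tested, and it was not called (adjusted p = 0.430, limma). Endothelial genes summed to 3.59 and 3.08 FPKM in the controls and to 3.52 and 1.72 FPKM in the knockouts, and neither of the 2 tested, of which Egfl7 was the more abundant, was called. Of 8 genes of melanocytes, another resident cell of the skin, 0 were called lower and 1 higher, with the most abundant, Dct, at 22.8 and 23.9 FPKM in the controls and at 23.1 and 29.3 FPKM in the knockouts. Of 10 keratinocyte genes, 3 were called lower and 2 higher, and Krt1, the most abundant, was at 12721 and 13157 FPKM in the controls and at 8246 and 9975 FPKM in the knockouts (log2 change -0.51, adjusted p = 0.0401, limma).

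The genes whose pattern over the 4 libraries was nearest to the median pattern of the 9 genes were Zfp13, Dpp4, Acot1, Bphl and Hmgn3, at a root mean square distance of 0.0123 to 0.0216 on the centred log2(FPKM + 1) scale. The members lay farther from their own median, between 0.0659 for H2-Eb1 and 0.386 for Cd3e. Dpp4, the peptidase CD26, was at 9.18 and 10.3 FPKM in the controls and at 5.18 and 4.32 FPKM in the knockouts. With 4 libraries in 2 groups, many genes that fell by a like amount share such a pattern.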

How the data were processed

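Total RNA from P0 epidermis was sequenced, and 1 table of gene values on GRCm38 was used per library. Its FPKM column, deposited by the authors, holds fragments normalised to transcript length and to the size of the library. Its TPM column, also deposited by the authors, is brought to an equal sum in all libraries. Its coverage column, likewise deposited, gives how deeply a base of the gene was read on average. The aligner, and whether strand was used in counting, are not given in the sources used here. Counts were not used, and counting intervals are therefore left out. Aligned bases per library were computed as coverage divided by FPKM.

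FPKM was summed per gene identifier, and 54723 of 54752 identifiers matched GENCODE M21 without version. Of 21921 protein-coding genes, 13609 exceeded 0.5 FPKM in 1 or more libraries, and these were tested with limma 3.58.1 in R 4.3.3 (lmFit, eBayes with a trend) on log2(FPKM + 1), as a two-sided test adjusted by Benjamini-Hochberg over these genes. The study's text names no pseudocount. The 10 genes and the gene lists were chosen with earlier results of these data known, so no p was adjusted over a list alone and no list was tested as a set. Named from each related list were the called genes, up to the 5 with the largest change, and the most abundant one; from each other cell type the most abundant one; and the 5 genes nearest in pattern. A named item is not reported here. Fits relative to Ptprc and Csf1r were added after seeing the data. RefSeq promoter windows had no entry used for H2-Ab1, Csf1r, Cd74, Ciita and Rfxap. The alternatives tried were 0.1 as pseudocount, a filter of 1 FPKM in 2 or more libraries, no filter, all biotypes, TPM, median scaling, quantile normalization, a replicate block, no trend, and leaving out each library.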

Additional observations from a re-analysis of the deposited data

Results flagged for a closer look

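The beta chain constant segments of the T cell receptor lie outside the protein-coding genes of the comparison, and their level in Skiv2l fl/fl K14-Cre epidermis was above that in the controls. Trbc1 averaged 7.48 FPKM and Trbc2 averaged 36.4 FPKM in the knockouts. Cd3e and Cd3g, whose products are needed to bring a T cell receptor to the surface, lay below the controls in the same libraries and were not called. Whether the Trbc1 and Trbc2 transcripts came from T cells was not tested.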

How the results depend on the processing

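The number of the 10 genes called lower was 7 under every alternative except no filter on FPKM (6) and leaving out 1 library (5 to 7), and 0 were called higher in each. Of 116 single-gene alternatives, 109 kept direction and call, 6 lost the call with the same sign (Csf1r, Ptprc and Coro1a), and 1 turned, the log2 change of Cd3e with quantile normalization (0.000784). Whether a replicate number marks a shared litter or batch is not given per sample. Deviations from the genotype means had a correlation of -0.08 between Skiv2l ctl replicate 1 and knockout replicate 1 over 13609 genes. With so few pups, that cannot decide the question. With a replicate block 7 of the 10 genes and 3 further pan-leukocyte genes were called lower. Called lower among further Langerhans cell and macrophage genes were 1 with no filter and 7 with TPM, and among further pan-leukocyte genes 3 with all biotypes, 2 with median scaling and 2 with quantile normalization. Among further T cell genes 1 was called higher with no filter, with quantile normalization or without a trend, and among keratinocyte-made factors 1 with FPKM above 1 in 2 samples. Leaving out 1 library at a time gave 0 to 2 lower calls for class II genes, 0 to 3 for Langerhans cell, 0 to 3 for T cell, 1 to 5 for pan-leukocyte and 4 to 9 for keratinocyte-made genes, and higher calls of 0 to 1 for Langerhans cell, 0 to 1 for pan-leukocyte and 1 to 2 for keratinocyte-made genes. The cause of these shifts was not tested, beyond the loss of a pup when a library is left out: without a control library 805 to 810 of all genes were called lower, against 3455. With 2 pups per genotype and read depths near 2 over the CD3 genes, small changes were not detectable.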
